A study of Mus musculus with 10 samples.

Results

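The libraries described here are those of 5 AHRfl/fl mice, chosen by the label AHRfl from a series of 10 libraries. Each library is the gastrocnemius RNA of 1 mouse, numbered 11, 12, 13, 15 or 33 in the labels. Per the study's methods, the red portions of this muscle were cut away for fibre bundles. The rest was used for mitochondria or frozen. Which portion gave the RNA of each library is not stated. The mice were male according to the study, on a C57BL6J background, and carried a floxed *Ahr* allele without the HSA-MCM transgene, in which the human ACTA1 promoter drives a tamoxifen-dependent Cre recombinase in myofibres. AHR, the aryl hydrocarbon receptor, was therefore intact. Per the study, the exposure of both genotypes began some weeks after tamoxifen delivery. The injections themselves are described for the knockout. The study calls the mice of this experiment aged, and their age in months is not given in the sources used here. All 5 mice had been exposed to smoke of 3R4F research cigarettes for 16 weeks, in 2 daily sessions of 1 h on 5 days per week at 220 ± 80 mg/m3 of total suspended particulates, and the muscle was taken at most 72 h after the last session. Since all 5 had been exposed, every value below describes smoke-exposed muscle and none measures an effect of smoke. There is 1 group, so the values are a description without tests.

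The gastrocnemius of the mouse is a mixed calf muscle made mostly of fast myofibres with a smaller share of slow ones. Fast fibres contract through type IIb, IIx and IIa myosin heavy chains and draw much of their energy from glycogen. Slow fibres use the beta heavy chain and depend on mitochondria. AHR is a transcription factor that binds dioxins and compounds of smoke, pairs with ARNT and induces cytochrome P450 genes such as Cyp1a1.

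Total counts per mouse were between 30393035 (mouse 33) and 36500548 (mouse 12), and TMM normalization factors between 0.954 and 1.05. No pair of libraries held identical counts, and Pearson's r of log2 CPM between pairs of mice, across genes, ran from 0.977 to 0.991. Of 49315 gene rows, 29561 had at least 1 count in some mouse and 13460 passed the filter on low counts. The smallest number of counts read as a signal, 3, was worth 0.0822 to 0.0987 CPM (counts scaled to a total of 1e+06). This floor covers counting error only. Mouse 33 stood apart in its low counts: 25494 genes had at least 1 count there, against 21610 to 21987 in the others. An SD from 5 mice is itself imprecise: its 95% interval spans 0.599 to 2.87 times the estimate.

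Genes of the sarcomere, the contractile unit of the myofibre, held the largest listed part of the libraries. The 77 genes of the 5 sarcomere lists took 23.7% ± 1.49 (SD, n = 5) of all gene counts. The troponins and tropomyosins, which switch contraction on and off with calcium, took 7.11% ± 0.705 (SD, n = 5). Titin, nebulin and the other Z-disc and M-band genes, which anchor the filaments, took 6.33% ± 0.275 (SD, n = 5). Myosin heavy chains, the motors, took 5.79% ± 0.490 (SD, n = 5). The thin filament actins followed with 2.43% ± 0.0865 (SD, n = 5) and the myosin light chains with 2.08% ± 0.208 (SD, n = 5). The light chain list, and with it the sarcomere sum, also holds the kinase gene *Mylk2*, at 1286 CPM. The sarcomere sum was highest in mouse 12, with 25.99%, and lowest in mouse 33, with 22.05%.

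Energy metabolism was the other large block. The 35 genes of the mitochondrial genome, which encode core subunits of the respiratory chain and the transfer RNAs that serve them, held 9.93% ± 1.55 (SD, n = 5) of counts. Of those counts, 99.4% fell on the protein-coding genes. Their share was 10.4% in mouse 11, 7.34% in mouse 12, 9.75% in mouse 13, 11.2% in mouse 15 and 10.9% in mouse 33, so that mouse 12 lay below the other 4. Glycolysis and glycogen genes held 7.68% ± 0.378 (SD, n = 5), with *Aldoa*, *Pygm* and *Gapdh* as the leading members. Calcium handling genes, led by the calcium pump gene *Atp2a1* and the calcium buffer gene *Pvalb*, held 5.60% ± 0.421 (SD, n = 5). The energy buffer list, which holds creatine and adenylate kinases and also *Adssl1* and *Adsl*, held 3.07% ± 0.234 (SD, n = 5), most of it *Ckm*. The 86 nuclear genes for subunits of the respiratory chain and ATP synthase held 2.95% ± 0.264 (SD, n = 5), with *Atp5b* and *Atp5a1* on top.

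Lists of genes for protein synthesis and breakdown took smaller shares. Cytosolic ribosomal proteins held 1.79% ± 0.0458 (SD, n = 5), proteasome and ubiquitin genes 1.28% ± 0.105 (SD, n = 5), and translation factors 1.14% ± 0.0413 (SD, n = 5). Among these the best counted genes were *Rplp0*, *Asb2* and *Eef1a2*, at 755, 858 and 2005 CPM. The antioxidant and glutathione list held 0.279% ± 0.0113 (SD, n = 5), led by *Gpx4*, the lipid peroxidase, and *Sod2*, the mitochondrial superoxide dismutase. Interferon-stimulated genes held 0.0590% ± 0.0103 (SD, n = 5) and the AHR pathway list 0.0218% ± 0.00123 (SD, n = 5). *Nqo1* and *Hsp90ab1*, described below with the AHR pathway genes, are not in that share. They were counted in the antioxidant and the heat shock lists. All 28 lists together held 62.9% ± 0.519 (SD, n = 5) of counts with 1229 genes, and the 20604 protein-coding genes in no list held 35.8% ± 0.444 (SD, n = 5). Long non-coding RNAs held 1.01% ± 0.101 (SD, n = 5), and *Gm42418*, *Neat1* and *Malat1* were the 3 best counted of them. Of the exon length of *Gm42418*, 99.5% overlaps other genes on the opposite strand. The counting strand is not given, so whether its counts include reads of those genes is not known.

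**Figure D1:**
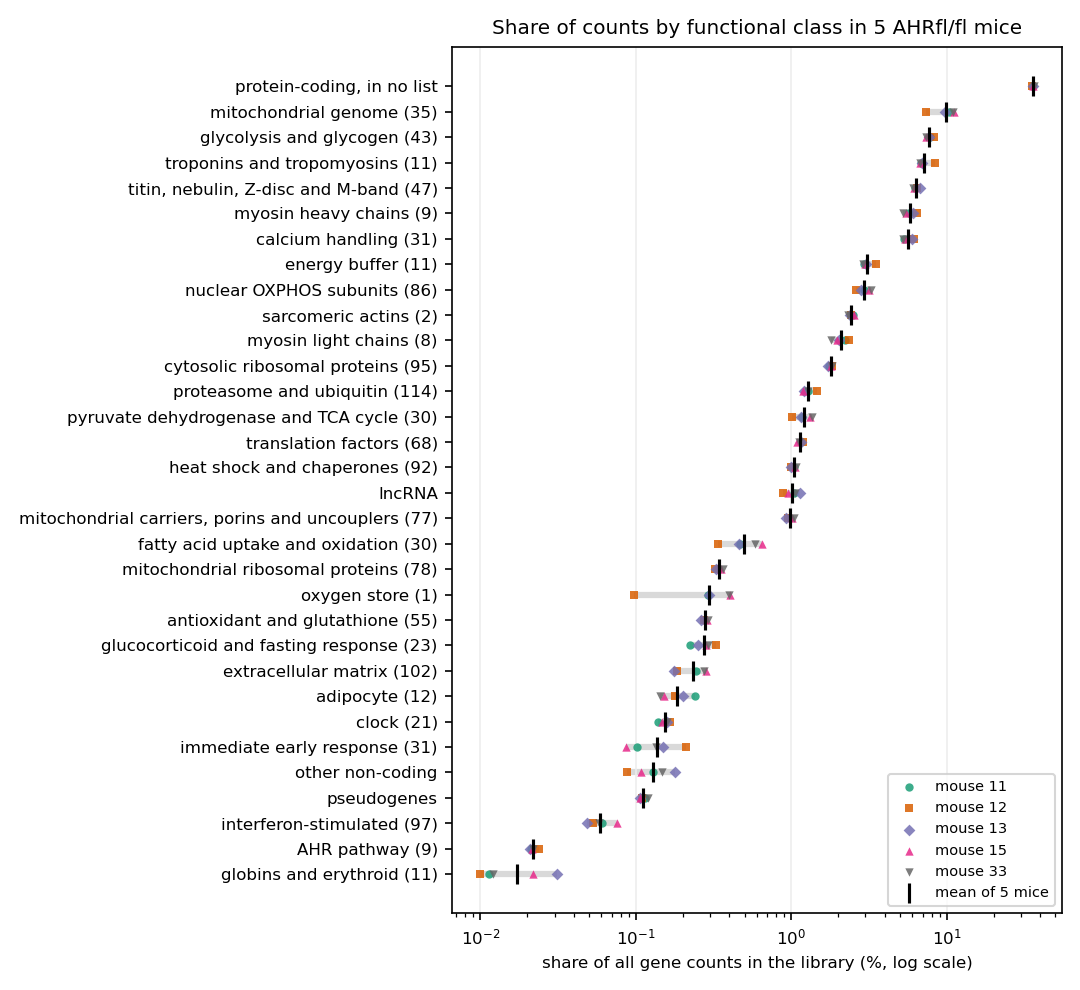
Share of all gene counts (x axis, percent, log scale) held by each functional list (y axis, number of genes in brackets for the lists) in each of the 5 AHRfl/fl mice, with the range as a grey bar and the mean as a black tick. The ranges of most lists are narrow, and those of the oxygen store gene Mb, the globins and the immediate early response genes are wide, from 0.0972% to 0.404% for Mb.

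Several lists ordered the mice alike, with mouse 12 at one end and mice 15 and 33 at the other. Mouse 12 had the highest share of 13 of the 28 lists, among them myosin heavy chains (6.47%), troponins and tropomyosins (8.35%), glycolysis and glycogen (8.26%) and energy buffer (3.48%). It had the lowest share of 8 lists, among them the mitochondrial genome, nuclear respiratory subunits (2.60%), pyruvate dehydrogenase and TCA cycle (1.01%), and fatty acid uptake and oxidation (0.339%). Mouse 15 had the highest share of the mitochondrial genome (11.2%) and of fatty acid genes (0.647%), and mouse 33 of nuclear respiratory subunits (3.26%) and of the TCA cycle list (1.36%). *Mb*, which encodes myoglobin, the oxygen store of oxidative fibres, is a list of 1 gene. Its ratio of highest to lowest mouse was the largest of any list (4.15, against 3.13 for the globins, whose CV was larger). It held 0.289%, 0.0972%, 0.294%, 0.404% and 0.395% of counts in mice 11, 12, 13, 15 and 33. The other lists are sums over several genes, and single genes in them had larger ratios, such as 14.4 for *Myh2* in CPM. The shares of a library sum to a fixed total, so a high share of one list lowers the others. In a bulk library, fewer cells or fibres of a type, less RNA per cell and another portion of the muscle sampled cannot be told apart.

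The composition of the myosin heavy chain counts shows the same order of mice. *Myh4*, the IIb chain, held 90.3% ± 5.98 (SD, n = 5) of the counts of the 9 heavy chain genes. It held 93.9%, 97.7%, 91.6%, 83.8% and 84.7% in mice 11, 12, 13, 15 and 33. *Myh1*, the IIx chain, held 4.70% ± 2.23 (SD, n = 5), from 1.84% in mouse 12 to 7.36% in mouse 15. *Myh2*, the IIa chain, held 4.597% ± 3.44 (SD, n = 5), from 0.436% in mouse 12 to 8.46% in mouse 33. *Myh7*, the beta chain of slow fibres, held 0.00487% of heavy chain counts in mouse 12 and 0.912% in mouse 15. Mice 15 and 33 had the highest shares of *Myh1*, *Myh2* and *Myh7* and the lowest shares of *Myh4*.

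The counts were concentrated in few genes. The single most counted gene, *Myh4* in every mouse, took 4.41% to 6.32% of counts. The 10 most counted genes of a mouse took 27.04% ± 0.830 (SD, n = 5), the top 100 took 53.1% ± 1.02 (SD, n = 5) and the top 1000 took 76.6% ± 0.743 (SD, n = 5). Between 62 genes (mouse 12) and 85 genes (mouse 33) held 50% of the counts, and between 2963 and 3315 held 90%. By mean CPM, 12 genes lay at 10000 or more and together held 29.2% of counts, and 77 genes from 1000 to 10000 held 22.7%. A further 1114 genes from 100 to 1000 CPM held 26.8%, while the 17432 genes with counts but under 1 CPM held 0.228%. Scaled by exon length the concentration was higher, and 21.6 ± 1.14 (SD, n = 5) genes held 50% of TPM (counts per exon length, scaled to 1e+06).

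The 15 genes highest by CPM, all of them in one of the lists, held 32.1% ± 1.05 (SD, n = 5) of counts. *Myh4* (ENSMUSG00000057003, chromosome 11 from 67238029 to 67260446, plus strand, GRCm38) came first with 53094, 66284, 56892, 45314 and 42033 CPM in mice 11, 12, 13, 15 and 33. *mt-Co1*, the core subunit of cytochrome c oxidase encoded in mitochondrial DNA, came next with 35470, 26451, 35658, 39975 and 36162 CPM. The mice ranked differently in these 2 genes: mouse 12 was highest in *Myh4* and lowest in *mt-Co1*. *Atp2a1* (chromosome 7 from 126445858 to 126463108, minus strand), the fast calcium pump SERCA1, had 29102 ± 2920 CPM (SD, n = 5). *Tnnt3*, the fast troponin T, had 25522 ± 3514 CPM (SD, n = 5) and *Ckm*, the muscle creatine kinase, 25375 ± 3365 CPM (SD, n = 5). *Acta1*, the skeletal actin, had 24276 ± 1274 CPM (SD, n = 5) and the narrowest relative spread of the 15, a coefficient of variation (CV) of 5.25%. The other 9 were *Aldoa*, *Tpm1*, *mt-Nd1*, *mt-Cytb*, *Myl1*, *mt-Nd2*, *Pygm*, *Tnnc2* and *Tnni2*, with means from 22507 down to 9374 CPM. Neighbours such as *Tnnt3*, *Ckm* and *Acta1* lay closer in CPM than the spread of the mice.

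CPM counts reads and favours long transcripts, so levels were compared between genes per length, as TPM. The length was that of all exons of a gene joined. For *Tnnt3* it is 1583 bases, against 1079 in its longest transcript, and for *mt-Co1* it is 1545 in both. The order of genes by TPM holds for this length only. Of the 15 genes highest by TPM, 12 were also among the 15 highest by CPM. *mt-Co1* led with 53369 ± 8139 TPM (SD, n = 5), followed by *mt-Nd1*, a complex I subunit, with 44913 ± 4253 TPM (SD, n = 5). *Tnnt3* had 38175 ± 4826 TPM (SD, n = 5) and *Acta1* 37455 ± 1737 TPM (SD, n = 5), a difference within the spread of the mice. *Myh4*, whose exons span 6016 bases, dropped to rank 10 with 20730 ± 3478 TPM (SD, n = 5). *Tnnc2*, the fast troponin C of 800 exonic bases, rose to 29146 ± 4788 TPM (SD, n = 5), but 74.0% of its exon length overlaps *Ube2c*. *Pvalb*, which encodes parvalbumin, and *Mylpf*, the fast regulatory light chain, entered with 20906 ± 4437 and 18453 ± 2645 TPM (SD, n = 5). The fourth place of *Gm23935*, annotated as a microRNA gene of 57 bases, rests on a length shorter than a read, and its 37832 ± 12453 TPM (SD, n = 5) correspond to only 912 CPM. By TPM the mitochondrial genome held 21.5% ± 2.79 (SD, n = 5) of the total and the sarcomere lists 22.5% ± 2.04 (SD, n = 5).

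**Figure D2:**
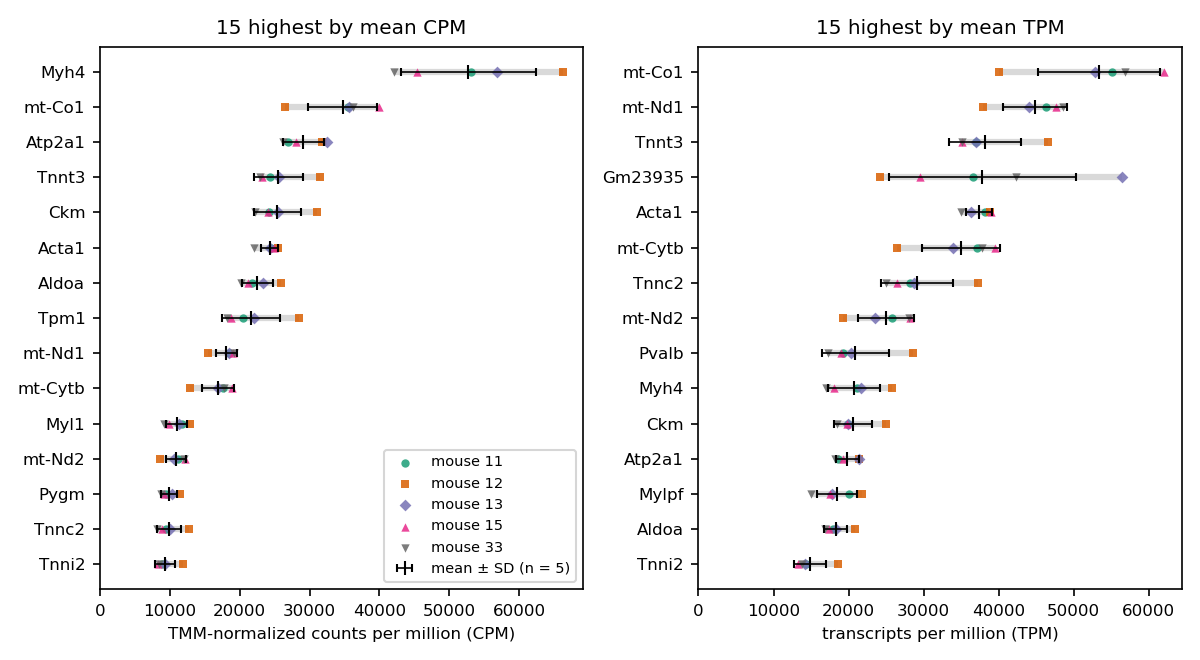
The 15 genes with the highest mean CPM (left) and mean TPM (right) in the 5 AHRfl/fl mice, 1 point per mouse, with mean and SD in black. Myh4 leads by CPM with 42033 to 66284, and mt-Co1 leads by TPM, per length of all exons, with 40123 to 61993. Mouse 12 lies highest for most fast-fibre genes and lowest for the mitochondrial ones.

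Promoter sequences, 300 bases each from RefSeq on GRCm38.p6, show what stands before some of the most abundant and the most variable genes. The 5 printed here are the promoters of *Myh4* and *Acta1*, which are among the most abundant, and of *Fos*, *Tnnt1* and *Myl3*, which are among the most variable genes described later. Each runs 5′ to 3′ on the strand of the gene and ends 50 bases after the start, and the capitals mark matches to a searched motif on either strand out of 6. The windows are chr11:67237562-67237861 (plus) for *Myh4*, chr8:123894726-123895025 (minus) for *Acta1*, chr12:85473640-85473939 (plus) for *Fos*, chr7:4515926-4516225 (minus) for *Tnnt1* and chr9:110763428-110763727 (plus) for *Myl3*.
Myh4: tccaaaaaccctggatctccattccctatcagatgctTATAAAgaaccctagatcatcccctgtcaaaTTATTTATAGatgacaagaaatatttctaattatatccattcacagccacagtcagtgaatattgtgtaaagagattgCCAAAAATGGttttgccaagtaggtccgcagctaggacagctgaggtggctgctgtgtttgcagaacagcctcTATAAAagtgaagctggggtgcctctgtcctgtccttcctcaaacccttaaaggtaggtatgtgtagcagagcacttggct
Acta1: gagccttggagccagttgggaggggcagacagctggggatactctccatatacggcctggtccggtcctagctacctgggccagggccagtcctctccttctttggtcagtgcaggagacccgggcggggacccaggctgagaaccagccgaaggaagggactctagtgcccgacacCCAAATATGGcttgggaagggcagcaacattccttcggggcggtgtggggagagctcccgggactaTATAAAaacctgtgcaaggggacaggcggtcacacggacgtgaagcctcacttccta
Fos: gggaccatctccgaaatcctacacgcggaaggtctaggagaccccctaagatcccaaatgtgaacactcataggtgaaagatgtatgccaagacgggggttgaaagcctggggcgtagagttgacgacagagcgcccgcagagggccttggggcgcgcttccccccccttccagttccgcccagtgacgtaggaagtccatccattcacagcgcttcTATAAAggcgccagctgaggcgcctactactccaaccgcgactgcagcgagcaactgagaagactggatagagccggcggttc
Tnnt1: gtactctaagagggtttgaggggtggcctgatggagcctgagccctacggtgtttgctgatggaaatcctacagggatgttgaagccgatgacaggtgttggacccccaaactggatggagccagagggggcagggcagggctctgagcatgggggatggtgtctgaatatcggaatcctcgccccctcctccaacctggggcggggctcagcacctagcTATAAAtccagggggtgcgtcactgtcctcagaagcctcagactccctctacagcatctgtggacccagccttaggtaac
Myl3: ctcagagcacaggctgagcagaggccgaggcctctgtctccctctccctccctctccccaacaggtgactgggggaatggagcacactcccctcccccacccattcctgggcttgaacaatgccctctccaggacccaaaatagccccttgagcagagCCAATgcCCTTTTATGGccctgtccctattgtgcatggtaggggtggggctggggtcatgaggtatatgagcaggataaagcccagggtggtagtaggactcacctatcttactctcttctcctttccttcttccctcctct

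The motifs searched, on both strands, were TATAAA, the CCAAT box, the E-box CACGTG, the cAMP response element TGACGTCA, and by name the MEF2 site and the CArG box. The TATAAA motif, the core of a TATA box, begins 31 bases before the start in *Myh4*, 33 in *Fos* and 30 in *Tnnt1*. In *Acta1* it begins 7 bases before the start that was used, and *Myh4* holds further matches at 213 and, on the other strand, 179 bases. The CArG box, the motif of serum response factor, was found 104 bases before the start in *Myh4*, 73 in *Acta1* and 85 in *Myl3*. *Myh4* also held a match to the MEF2 site, 182 bases before the start, which overlaps the TATAAA match on the other strand. A promoter was matched for 9 of the 15 most abundant genes and for 21 of the 25 most variable, using the first listed start of each gene. TATAAA stood in 3 of the 9 and 3 of the 21, beside 14.2% of all 27025 promoters. The CArG box stood in 2 of the 9 and 1 of the 21, beside 1.57% of all promoters. CCAAT stood in 4 of the 9 and 6 of the 21, beside 37.9%, and the MEF2 site in 1 of the 9 and 1 of the 21, beside 3.26%. CACGTG was found once, in *Myh7b*, beside 7.24% of all promoters, and TGACGTCA in none of the 30, beside 1.88%. These matches are descriptions of the letters in the windows.

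Most genes differed little between the 5 mice. For 9990 genes with a mean count of at least 100, the median CV of CPM was 9.43%. After the variance expected from counting alone was subtracted, the median excess CV was 8.26%, with the middle 50% of genes between 4.98% and 13.6%. An excess CV over 30% was found in 446 genes (4.46%) and over 50% in 120 genes (1.20%). In 655 genes (6.56%) the spread was no larger than counting error. Of the 120 genes over 50%, 60 were highest in mouse 15 (50%, against 20.9% of all 9990 genes) and 36 in mouse 12 (30%, against 31.8%). Mouse 12 was lowest in 50 of the 120 (41.7%, against 26.1%). In 61 of the 120 (50.8%), mice 15 and 33 both lay above the other 3, against 17.3% of all 9990 genes. Of the same 9990 genes, 76 were over 50% without mouse 12, and 82 were without mice 15 and 33.

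**Figure D3:**
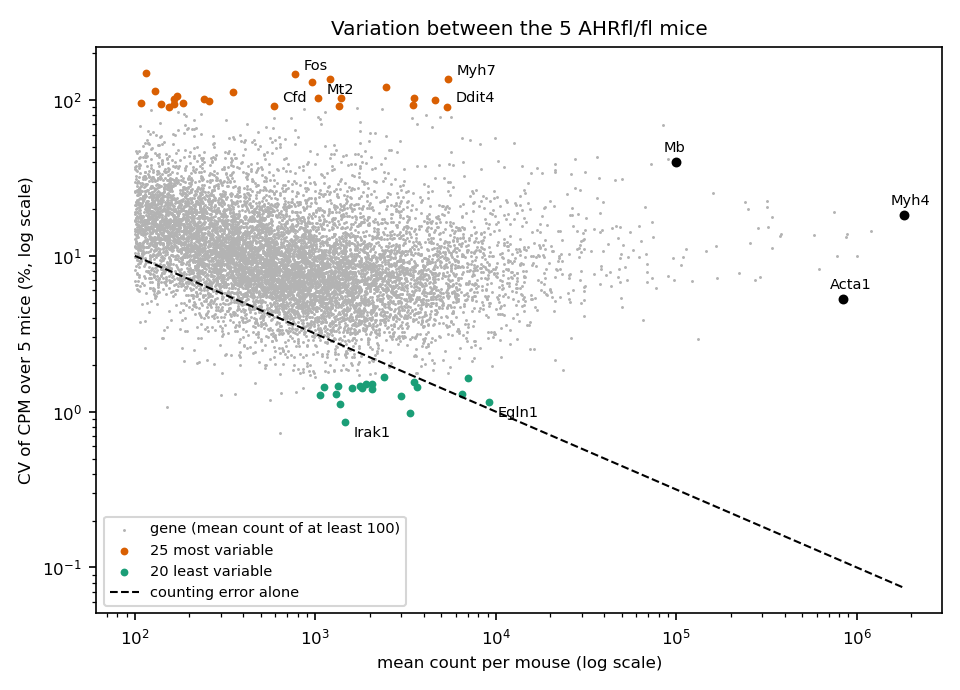
CV of CPM over the 5 AHRfl/fl mice (y axis, percent, log scale) against the mean count per mouse (x axis, log scale) for 9990 genes, with the 25 most variable in orange, the 20 least variable in green and the CV that counting error alone gives as a dashed line. Myh4 and Acta1, at the right, have CVs of 18.3% and 5.25%, and the orange genes have CVs from 90.4% to 150%.

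The largest group among the 25 most variable genes was that of slow-fibre sarcomere genes, high in mice 15 and 33 and low in mouse 12. *Myh7* (chromosome 14 from 54970684 to 54994626, minus strand) had 14.4, 3.30, 9.33, 493 and 290 CPM in mice 11, 12, 13, 15 and 33, an excess CV of 137%. *Tnnc1*, the slow troponin C, had 4.33, 0.862, 1.66, 109 and 62.8 CPM, an excess CV of 136%. *Tnni1*, the slow troponin I, had 4.04, 1.21, 2.31, 83.6 and 50.9 CPM, and its highest mouse was 69.3 times its lowest. In all 3 genes mice 15 and 33 stood far above the other mice, which did not reach 15 CPM. *Tnnt1*, the slow troponin T, ranged from 3.45 to 204 CPM and *Tpm3*, the slow tropomyosin, from 25.1 to 267 CPM. *Myl3* and *Myl2*, the slow light chains, behaved a little differently. *Myl3* had 59.1, 7.33, 58.6, 334 and 217 CPM and *Myl2* 53.5, 4.91, 53.1, 238 and 164 CPM, so mice 11 and 13 lay well above mouse 12. Without mice 15 and 33 the excess CV was 61.6% for *Myh7*, 78.8% for *Tnnc1*, 55.9% for *Tnni1*, 60.3% for *Tnnt1* and 21.2% for *Tpm3*.

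Other members of the most variable genes followed the same mice. *Myh7b*, a heavy chain gene related to *Myh7*, was at 7.62 CPM or more in mice 15 and 33 and at 0.974 CPM or less in the others. *Igfn1*, a muscle immunoglobulin-domain gene, had 93.8 and 78.9 CPM in mice 15 and 33 and 4.28 to 19.6 CPM in the other 3. *Barx2*, a homeobox gene, had 11.3 and 11.4 CPM in mice 15 and 33 and 1.15 to 1.94 CPM in the others. *Cyfip2*, of the actin-regulating WAVE complex, and *BC048679* were likewise highest in mice 15 and 33 and lowest in mouse 12. *Kera*, which encodes keratocan, a matrix proteoglycan, had 8.14 CPM in mouse 15, 4.02 in mouse 33 and at most 2.15 in the others. Without mice 15 and 33 the excess CV was 30.5% for *Myh7b*, 22.97% for *Barx2*, 56.1% for *Cyfip2* and 58.7% for *Kera*. Beyond the first 25, *Atp2a2*, the slow calcium pump and the most variable calcium handling gene, ranged from 44.5 CPM in mouse 12 to 307 in mouse 15. *Ldhb*, the lactate dehydrogenase subunit of oxidative fibres and the most variable glycolysis gene, ranged from 31.0 to 307 CPM. *Myoz2*, a slow Z-disc gene and the most variable of its list, ranged from 16.5 to 205 CPM.

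A different set was high in mouse 12. *Fos*, an immediate early transcription factor gene (chromosome 12 from 85473890 to 85477273, plus strand), had 4.67, 79.7, 18.1, 2.25 and 6.62 CPM in mice 11, 12, 13, 15 and 33, an excess CV of 147%. *Fosb*, its relative, had 2.41, 16.5, 12.5, 0.664 and 2.82 CPM. *Socs3*, a feedback inhibitor of cytokine signalling, had 7.22, 30.02, 4.001, 2.31 and 7.06 CPM. Mouse 12 was highest in all 3 and mouse 15 lowest. The metallothionein genes *Mt2* and *Mt1*, which encode metal-binding proteins, reached 85.4 and 104 CPM in mouse 12 and stayed between 14.8 and 29.5 CPM in the other mice. *Ddit4*, an inhibitor of mTORC1 signalling, had 57.6, 400, 150, 86.9 and 82.3 CPM. *Gm45774*, the gene with the highest excess CV of the 9990 (149%, with all 5 mice), had 12.2 CPM in mouse 12 and 0.635 to 1.66 CPM in the others, but it lies on the strand opposite *Mt2* and 16.2% of its exon length overlaps it. The counting strand is not given in the sources used here, so whether reads of the pair were kept apart is not known. Without mouse 12 the excess CV was 43.2% for *Gm45774*, 10.1% for *Mt2*, 23.1% for *Mt1*, 41.7% for *Ddit4*, 46.1% for *Socs3* and 88.7% for *Fos*.

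The remaining genes of the 25 followed single mice or other pairs. *Cfd*, which encodes the adipocyte protease adipsin, had 43.7, 16.4, 10.7, 7.64 and 6.15 CPM in mice 11, 12, 13, 15 and 33. *Cyp2e1*, an ethanol-metabolizing cytochrome P450, and *Hp*, haptoglobin, gave the same order of mice, with 12.3 and 11.3 CPM in mouse 11 and 1.22 and 1.54 in mouse 33. Without mouse 11 their excess CVs were 44.1% (*Cfd*), 53.5% (*Cyp2e1*) and 50.2% (*Hp*). *Gbp4*, an interferon-induced GTPase, had 13.3 CPM in mouse 15 and at most 4.41 in the others, with an excess CV of 101%, or 44.5% without mouse 15. *Slc15a2*, a peptide transporter, had 10.6 and 10.4 CPM in mice 12 and 13, 2.83 in mouse 15, 0.573 in mouse 11 and 0.1255 in mouse 33. The 25th gene by excess CV, *Hp*, stood at 90.1%, and the next one at 88.6%.

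**Figure D4:**
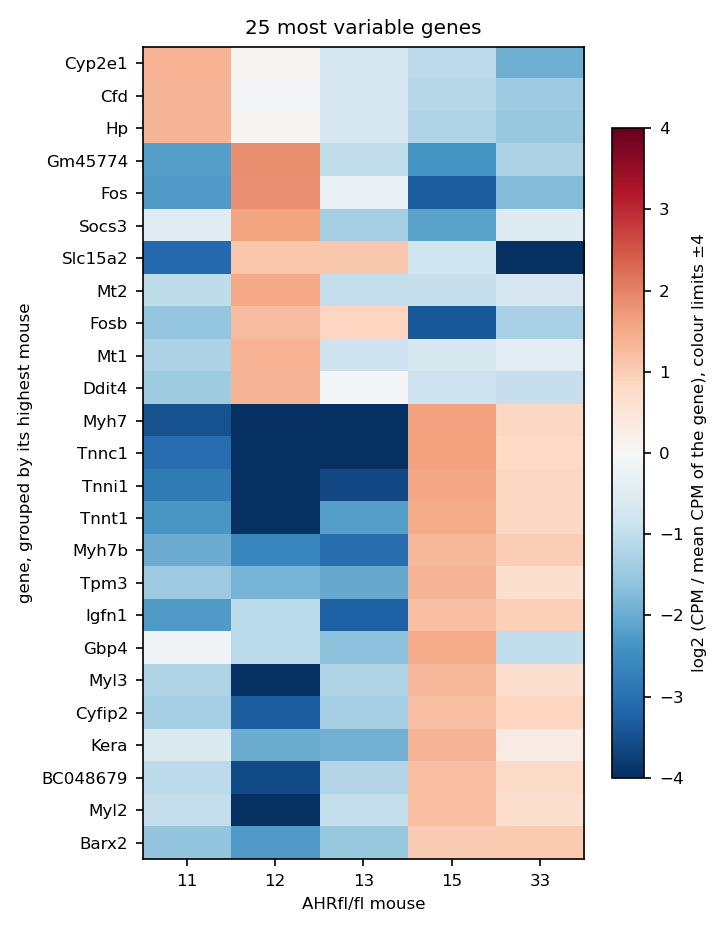
log2 ratio of each mouse's CPM to the gene's mean over the 5 AHRfl/fl mice (colour, red above and blue below the mean, limits at ±4) for the 25 genes with the highest excess CV, grouped by their highest mouse. The genes form blocks, with those highest in mouse 11 at the top, in mouse 12 below, and in mice 15 or 33 at the bottom, where Myh7 has 493 and 290 CPM.

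By list, variation was low among genes of the ribosomes and the nuclear genes of the respiratory chain, but not among those of the mitochondrial genome. The median excess CV was 4.91% for 77 mitochondrial ribosomal genes, 5.37% for 87 cytosolic ribosomal genes and 5.89% for 83 nuclear respiratory subunits, beside 8.26% over all 9990 genes. The 26 genes of the mitochondrial genome had a median of 18.6%. That of its 13 protein-coding genes was 13.7%, with *mt-Co1* at 14.4%, and that of 13 transfer RNA genes, which hold 0.591% of its counts, was 22.9%. *Sdhb*, of complex II, was the most variable nuclear respiratory subunit with 16.4%, and none of these 4 lists held a gene over 50%. Without mouse 12 the median was 10.1% for the mitochondrial genome and 3.32% for cytosolic ribosomal genes. Without mice 15 and 33 it was 3.41% for nuclear respiratory subunits and 3.13% for mitochondrial ribosomal genes. The proteasome and ubiquitin list had a median of 8.24%, and its extreme member was *Fbxo32*, an atrophy ubiquitin ligase, at 39.0%. The highest medians were those of 7 myosin heavy chains, 65.5%, of which 4 were over 50%, and 5 globin and erythroid genes, 54.8%, of which 4 were. All 5 of the latter were highest in mouse 13, and without it their median was 22.3% and 0 were over 50%. Without mice 15 and 33 the heavy chain median was 38.6%, with 2 over 50%. The immediate early list had a median of 50.9%, with 14 of 28 genes over 50%, beside 1.20% of all genes. Of the 28, 22 were highest in mouse 12, and 8 were over 50% without that mouse and 9 without mouse 15. The glucocorticoid and fasting list had a median of 29.8% with 5 of 21 over 50%, and *Foxo4* its least variable member at 4.91%. Without mouse 12, 0 of the 21 were over 50%. The extracellular matrix list had a median of 24.01% with 6 of 58 over 50%, led by *Fmod*, a tendon proteoglycan, at 76.7%. Without mouse 15, 3 of the 58 were over 50%. The clock list, of genes that oscillate over the day, had a median of 14.7% with 0 of 20 over 50%, from *Cry1* with no excess over counting error to *Nfil3* at 38.9%.

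Among 3684 genes with a mean count of at least 1000, the lowest CV was 0.853%, for *Irak1*, a kinase of innate immune signalling, at 42.3, 43.2, 42.9, 42.9 and 42.4 CPM in mice 11, 12, 13, 15 and 33. *Rps28*, a ribosomal protein gene, had 96.4 to 98.6 CPM and a CV of 0.987%. *Egln1*, the oxygen-sensing prolyl hydroxylase PHD2, had 267 ± 3.07 CPM (SD, n = 5), and *Cdc42*, a small GTPase of the cytoskeleton, 190 ± 2.47 CPM (SD, n = 5). The others included *Rbm33*, *Rbbp7*, *Ash2l*, *Anapc11*, *Mrpl9*, *Mrpl48*, *Tial1*, *Rbm39*, *Glyr1*, *Zbtb17*, *Tmem126a*, *2310061I04Rik*, *Rps19*, *Ndufa3* and *Lamtor1*. In 17 of the 20 the CV was below the one counting error alone gives, so their order says little. The list also depended on the scaling: with CPM by total count 0 of the 20 stayed among the 20 lowest, with DESeq2 size factors 11 did, and without any 1 mouse 5 to 10 did. *Acta1* (excess CV 5.25%) and *Gapdh* (7.30%) were less steady than these.

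Of the AHR pathway genes, the receptor and its cytochrome P450 targets had few counts, while the partner and the chaperones had more. *Ahr* itself had 110, 71, 58, 68 and 43 counts in mice 11, 12, 13, 15 and 33, which is 2.03 ± 0.686 CPM (SD, n = 5). *Arnt*, its partner, had 41.2 ± 3.56 CPM (SD, n = 5). Of the target genes, *Cyp1a1* had 38 to 55 counts and 1.25 ± 0.175 CPM (SD, n = 5), no more spread than counting error gives, and *Cyp1b1* 1.77 ± 0.646 CPM (SD, n = 5), highest in mouse 33. *Cyp1a2* had 0 counts in every mouse, below the floor of 3 counts, and *Ahrr*, the repressor, had 0 counts in mice 11, 12 and 13 and 3 and 5 in mice 15 and 33. *Nqo1*, a quinone reductase, had 27.8 ± 2.39 CPM (SD, n = 5) and *Tiparp*, a feedback inhibitor, 26.1 ± 5.96 CPM (SD, n = 5), from 20.1 in mouse 33 to 34.2 in mouse 12. The chaperone genes *Hsp90ab1* and *Ptges3*, whose products hold the receptor in the cytosol, had 1421 ± 138 and 61.1 ± 6.85 CPM (SD, n = 5).

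The tissue label was checked against marker genes. The 8 skeletal myofibre markers summed to between 136727 CPM (mouse 33) and 188559 CPM (mouse 12), a ratio of 1.38. The 8 slow myofibre markers summed to 265, 94.4, 243, 2036 and 1293 CPM in mice 11, 12, 13, 15 and 33, a ratio of 21.6. Of 5 tendon markers, the sum ran from 46.3 CPM in mouse 13 to 275 in mouse 15, with *Tnmd* at 12.6 CPM and *Fmod* at 227 CPM in mouse 15. *Scx*, a tendon transcription factor, stayed between 5.84 and 7.50 CPM. The 6 adipocyte markers summed to 62.1 CPM in mouse 11, where *Adipoq* had 5.82 CPM and *Plin1* 4.84 CPM, and to 9.98 to 23.4 CPM in the others. *Cfd*, itself one of the 6, made up 43.7 CPM of that sum, and *Lep*, the leptin gene, was the marker not highest in mouse 11. Of the longer adipocyte list, 5 genes had a mean count of at least 100, of which 3 were highest in mouse 11 and 2 in mouse 15. *Cfd*, *Scd1* (40.9 CPM against 9.95 to 12.2 in the others) and *Car3* (1997 CPM against 956 to 1719) were highest in mouse 11. *Plin4* was lowest in mouse 11, at 144 CPM against 283 in mouse 15, and *Fabp4* was highest in mouse 15, at 175 CPM against 144 in mouse 11. *Cyp2e1* and *Hp* were highest in mouse 11, and the part of fat in them was not tested. The 5 erythroid markers summed to 320 CPM in mouse 13 and 213 in mouse 15, and to 104 to 114 CPM in the other 3. *Hbb-bs* and *Hba-a1*, the leading globins, have near-identical copies, so their split among copies is uncertain.

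Most other marker sums varied by a ratio under 2. Schwann cell markers summed to 110 CPM in mouse 11 and to 60.4 and 65.4 CPM in mice 15 and 33. Endothelial markers summed to 138 CPM in mouse 12 and 222 CPM in mouse 33, and macrophage markers to between 16.2 and 28.2 CPM. Fibroblast markers lay between 600 and 884 CPM, satellite cell markers between 7.95 and 13.2 CPM and T cell markers between 1.95 and 2.85 CPM. The cardiac marker *Myl7* had 0 counts in every mouse. Of the 4 keratinocyte markers, *Krt5* had 0 counts in every mouse, *Krt14* and *Krt1* at most 2 counts, and *Krt10* 59 to 99 counts (1.85 to 2.84 CPM). *Myh6*, the alpha heavy chain and another cardiac marker, had 3.98 and 2.23 CPM in mice 15 and 33 and at most 0.344 CPM in the others. The tendon and slow-fibre sums were both highest in mouse 15, and the part of tendon in the slow-fibre values was not tested.

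**Figure D5:**
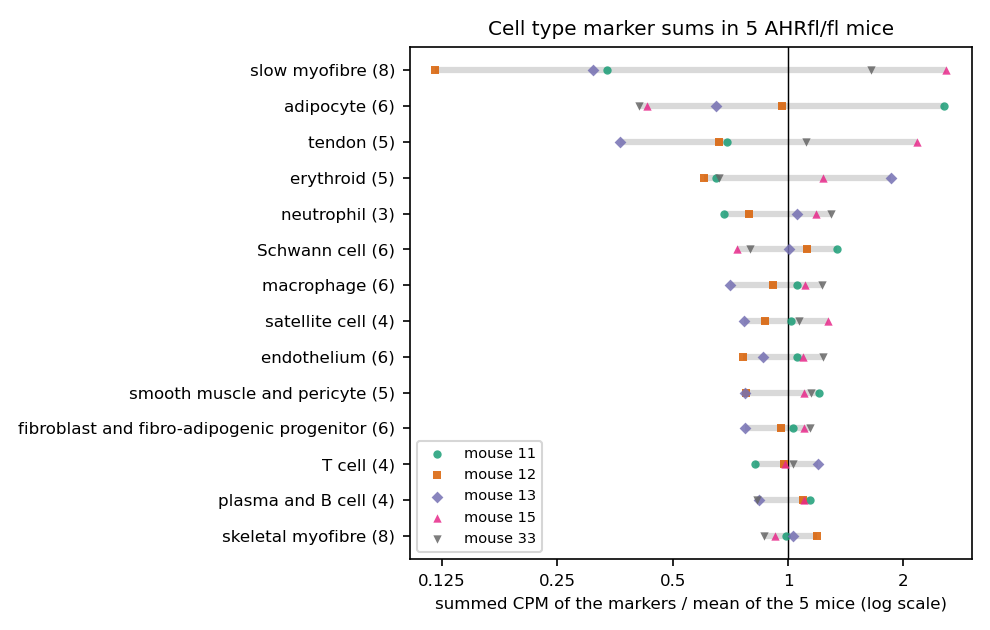
Summed CPM of the markers of each cell type (y axis, number of markers in brackets) in each of the 5 AHRfl/fl mice, relative to the mean of the 5 (x axis, log scale), ordered by the ratio of highest to lowest mouse. The slow myofibre sum spans a ratio of 21.6 and the skeletal myofibre sum one of 1.38.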

How the data were processed

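Gastrocnemius RNA of 10 mice was sequenced, of which the 5 AHRfl libraries were used. The authors selected poly(A) RNA, sequenced paired ends, used Trimmomatic 0.36 for trimming and STAR 2.5.2b for alignment to GRCm38, and counted uniquely placed exon reads by featureCounts. They deposited raw counts per gene, not normalized and not pooled. Such counts leave out reads that map to several places, which lowers genes with near-identical copies. The annotation release is not given in the sources used here. Names, positions and exon lengths came from GENCODE M21 (49056 of 49315 rows matched, and the rest held at most 0.0186% of counts).

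Shares are percent of all gene counts of a mouse. CPM were scaled by TMM in edgeR 4.0.16 (R 4.3.3) after filterByExpr (minimum count 10, minimum total 15), and TPM used the union exon length. The excess CV is the square root of the squared CV minus the variance that counting gives, and its computation was tested on simulated data. Genes named are the 15 highest by CPM and by TPM, the 25 highest by excess CV (mean count of at least 100), the 20 lowest by CV (mean count of at least 1000), the AHR pathway genes, the 3 highest of each list with its most and least variable members, markers, and genes in which a mouse stands apart. A gene belongs to the first list that takes it. The members, lists and this rule were chosen with earlier results of these data known. Alternatives were CPM by total count or DESeq2 1.42.0 size factors, TPM, leaving out the mitochondrial genome or each mouse, other count minimums and other measures of spread. The labels number the libraries by group, and each number was taken as 1 mouse and 1 replicate. Reads carry no molecular identifiers, so floors cover counting error only. Some genes that the rule names are not reported here.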

Additional observations from a re-analysis of the deposited data

Results flagged for a closer look

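In 103 results (shares of lists, numbers of genes and CPM of named genes), the gap between the highest or lowest mouse and its neighbour was compared with the whole range of the 5 mice, and 11 exceeded Dixon's limit of 0.71. CPM were compared on the log2 scale. Chance gives about 1 in 20 among independent groups. These results overlap and some genes were named for their spread, so the number 11 is not read against that share.

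The number of genes with at least 1 count stood apart in mouse 33 (gap over range 0.903), with 25494 genes against 21610 to 21987 in the others, although its total count was the lowest. The share of troponins and tropomyosins (0.848), of the energy buffer list (0.842) and of the AHR pathway list (0.717) was high in mouse 12, at 8.35%, 3.48% and 0.0240% of counts. In the same mouse *mt-Nd1* (0.812), *mt-Cytb* (0.715) and *mt-Co1* (0.711) were low, at 15496, 12916 and 26451 CPM. *Mt2* (0.865) was high in mouse 12, at 85.4 CPM. Among the least variable genes, *Rbm33* (0.811) was low in mouse 13 and *Rps19* (0.736) low in mouse 15. Their CPM were 39.1 against 40.0 to 40.2 and 99.4 against 102.3 to 103.4 in the other mice, and the CV of both genes was below the one counting error gives.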

How the results depend on the processing

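Of the alternatives, 2 kinds were chosen after seeing the data (without mice 15 and 33, and TPM over genes of at least 200 exonic bases). The median excess CV stayed within its limit under all alternatives run for it, and 5 mice limit the precision of every SD. Shares were called moved when they differed by more than the SD of the mice, and counts of genes or genes shared when they differed by more than 1.5 times. The cause of a move was not tested, except that leaving out the mitochondrial genome removes its counts from the total. Leaving out the mitochondrial genome gave 26.3% for the sarcomere lists, 8.52% for glycolysis and glycogen, 6.22% for calcium handling, 3.28% for nuclear respiratory subunits, 1.99% for cytosolic ribosomal proteins and 25.7% for the 10 most abundant genes, and 117.4 genes held 50% of counts. With TPM the mitochondrial genome had 21.5%, glycolysis and glycogen 6.27%, nuclear respiratory subunits 4.21%, cytosolic ribosomal proteins 2.66% and the 10 most abundant genes 34.5%, and 21.6 genes held 50%. With TPM over genes of at least 200 bases these were 20.9%, 6.70%, 4.51%, 2.84%, 34.9% and 21.4. Counting genes with at least 1 count in any mouse gave 29561 genes. Genes with an excess CV over 50% numbered 75 without mice 15 and 33, 280 at a mean count of at least 20 and 55 at a mean count of at least 500, and 76 (without mouse 12) to 146 with each mouse left out. With the 9990 genes of the main set kept, 82 were over 50% without mice 15 and 33. The range with each mouse left out was then 76 (without mouse 12) to 147 (without mouse 11). Of the 25 most variable genes, 13 were shared with the list without mice 15 and 33, 9 at a mean count of at least 20, 13 at a mean count of at least 500, and 18 to 22 with each mouse left out. Of the 20 least variable genes, 5 to 10 were shared with each mouse left out, 2 without mice 15 and 33, 0 with CPM by total count, 11 with DESeq2 size factors and 3 at a mean count of at least 5000. The excess CV of single genes among the 25 moved by more than 1.5 times in 20 of 274 values recomputed. The mean CPM of abundant and AHR pathway genes stayed within 1 SD of the mice in 182 of 182, which for *Ahrr* is wide: 0.0214 without mouse 33 against 0.0487 CPM. No paired analysis was possible because there is 1 group.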

Other observations

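The following genes were chosen after their values were seen. Genes in which mice 15 and 33 both lay below the other 3 made up 18 of the 120 with an excess CV over 50% (15%). Among all 9990 genes the share was 19.9%. *Hoxa11*, *Hoxa13* and *Tbx1* were among the 18. *Hoxa11* had 6.5, 7.5 and 6.5 CPM in mice 11, 12 and 13 and 1.7 in both mice 15 and 33, and *Hoxa13* had 7.3, 6.4 and 9.2 CPM against 1.8 and 2.1. *Tbx1* had 2.0 and 2.6 CPM in mice 15 and 33, 4.0 in mouse 12, and 10.6 and 11.4 in mice 11 and 13. Each has an excess CV over 50%, in the order 59.0%, 61.1% and 73.7%.

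Genes high in mouse 12 also included *Slc25a25*, a calcium-regulated carrier of ATP, with 289 CPM against 66.6 to 83.0, and *Sgk1*, a glucocorticoid-induced kinase, with 378 against 106 to 172. *Junb* had 126 CPM in mouse 12 and 19.4 to 35.3 in the others, and *Cebpd* 107 CPM against 24.6 to 50.6. *Otud1*, a deubiquitinase gene, went with a different pair, with 107 and 149 CPM in mice 12 and 13 and 13.1 to 48.5 in the others.

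Mouse 33 had more genes with few counts than the others. With each library thinned in expectation to the lowest total, 21157 to 21687 genes were counted in mice 11, 12, 13 and 15, and 25494 in mouse 33. It had 3037 genes counted in no other of these mice, with 6897 counts in all, against 552 to 628 such genes in each of the others. Of the 3037, 911 were protein-coding and 565 processed pseudogenes.

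*Xist* had 71, 1, 0, 69 and 75 counts in mice 11, 12, 13, 15 and 33, while the Y-linked *Ddx3y* had 58.1 to 75.2 CPM in every mouse. The non-coding genes *Gm42418*, *Gm23935* and *Gm24270* were all highest in mouse 13 and lowest in mouse 12, with 1282 to 3464 CPM for the first.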
